A study of Mus musculus with 5 samples.

Results

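The genes described here are 39 genes of the unfolded protein response and of protein folding in the endoplasmic reticulum (ER), taken by symbol from a table of 19198 genes measured in mouse small intestine. All 39 had a row in that table, and 38 had enough counts to be tested. The list was made by function: chaperones and co-chaperones, disulfide enzymes, degradation factors, stress sensors with their transcription factors, stress feedback genes and translocation subunits. The Cre-positive group held 2 Math1Cre*PR mAchR4 fl/fl mice, and the Cre-negative group held 3 mAchR4 fl/fl mice without the transgene. Math1, also called Atoh1, is a transcription factor required for the secretory lineage, and Cre*PR is a recombinase that RU486, a synthetic progesterone receptor ligand, switches on. RU486 was given to all 5 mice by gavage, 10 mg/kg daily for 4 days, so both groups shared the drug and the floxed M4 muscarinic receptor gene, Chrm4. No mouse carried the transgene with unfloxed Chrm4, so Cre activity and loss of Chrm4 cannot be told apart. RNA came from tissue labelled small intestine, with no stretch, layer or cell sort named, so cells outside the Math1 lineage are included. Each library is 1 mouse, and all p-values rest on the spread between these mice.

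The ER folds proteins bound for secretion or membranes, and goblet cells, which make large amounts of the mucin Muc2, load it heavily. Unfolded protein in the ER is sensed by the kinases Ire1 (gene Ern1) and Perk (gene Eif2ak3) and by the membrane-bound transcription factor Atf6. Ire1 splices the messenger of the transcription factor Xbp1, and Perk slows translation while favouring the transcription factor Atf4. Atf6 and Xbp1 raise chaperone and degradation genes, and Atf4 raises genes of amino acid supply and, under lasting stress, Ddit3 (Chop) and Trib3.

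The promoters of these genes are known for the ER stress response element, ERSE, which consists of CCAAT and CCACG separated by 9 bases. The element was defined from promoters of genes such as these, so its share among them is largely fixed by the choice of genes. The sites are printed to show which members carry it and how they differ. RefSeq promoter windows (GRCm38.p6, 250 bases before to 50 after a start site) were found for 34 of the 39 genes. An exact ERSE on either strand was present in 10 of these 34 (29.4%), against 37 of 27025 genes with a window (0.137%). The 11 sites follow, each read on the strand that shows CCAAT first, with CCAAT and CCACG in capitals.
Hspa5: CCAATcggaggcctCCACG
Hsp90b1, distal: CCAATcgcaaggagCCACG
Hsp90b1, proximal: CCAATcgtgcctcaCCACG
Calr: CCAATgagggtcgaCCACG
Canx: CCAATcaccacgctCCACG
Dnajc3: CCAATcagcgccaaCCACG
Creld2: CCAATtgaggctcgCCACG
Pdia6: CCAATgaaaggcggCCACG
Ero1lb: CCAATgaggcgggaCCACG
Syvn1: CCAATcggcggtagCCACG
Derl3: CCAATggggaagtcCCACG

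Measured from the RefSeq start, the nearest site was that of Syvn1, whose last base lay 26 bases upstream. The farthest was the distal Hsp90b1 site, at 194 bases. The GENCODE gene bounds given below start Hspa5 and Hsp90b1 farther upstream, and for Hspa5 upstream of its site. The sites of Calr, Creld2, Ero1lb and Derl3 and the proximal Hsp90b1 site lay on the strand opposite to the gene. The 250 bases before the RefSeq start of Hspa5, the gene of the chaperone BiP (chr2:34771840-34772089, plus strand), show its site in capitals.
Hspa5 upstream: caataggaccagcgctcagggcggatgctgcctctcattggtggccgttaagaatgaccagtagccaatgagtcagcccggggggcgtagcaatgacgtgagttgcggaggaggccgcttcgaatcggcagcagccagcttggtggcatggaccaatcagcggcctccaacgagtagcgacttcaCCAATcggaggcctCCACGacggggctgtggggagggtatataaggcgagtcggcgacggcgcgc
The same stretch of Hsp90b1, the gene of the chaperone Grp94 (chr10:86705445-86705694, minus strand), holds both of its sites, the second as the reverse complement.
Hsp90b1 upstream: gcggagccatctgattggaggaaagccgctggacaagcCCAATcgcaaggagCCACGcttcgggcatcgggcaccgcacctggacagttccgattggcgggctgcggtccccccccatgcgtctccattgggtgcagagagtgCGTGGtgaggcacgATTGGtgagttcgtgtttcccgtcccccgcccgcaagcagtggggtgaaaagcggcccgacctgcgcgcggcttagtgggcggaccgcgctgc

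The shorter ERSE-II, ATTGG and CCACG separated by 1 base, was present in Dnajb11 and Herpud1, 2 of 34 genes (5.88%) against 0.0444% of all genes with a window. CCACG alone, which both elements contain, was present in 28 of 34 (82.4%) against 35.5%. GACGTGG, the core that Xbp1 binds, was present in Pdia6, Edem3 and Ssr1 (8.82% against 2.73%). TGATGCAA, an Atf4 element, was present in Herpud1 alone (2.94% against 1.03%). All motifs were searched on both strands. The windows of other genes were not matched for base composition, and a match is not evidence of binding.

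No gene of the list passed the test between Cre-positive and Cre-negative intestine. Values are CPM, the counts of a gene scaled to a common library size, after TMM scaling, which corrects for library composition. Differences are log2 ratios of the Cre-positive to the Cre-negative group with their standard errors (SE), from edgeR's quasi-likelihood fit over all 14352 genes tested. With an adjusted p threshold of 0.05, 0 of the 38 members tested were called higher and 0 lower, as for all genes tested (0% in each direction, adjusted p = 0.977 for the lowest). At an unadjusted p under 0.05, 6 members were on the higher side, against 1.6% of all genes tested, and 1 was on the lower side, against 1.78%. The 6 were Sdf2l1, Manf, Hspa5, Selenos, Edem1 and Eif2ak3, and the 1 was Atf4. With other scalings, filters and tools, 4 to 7 members were on the higher side and 0 to 1 on the lower. Scaling by total counts alone gave 4 and 0. Without each Cre-negative mouse in turn, 2 to 3 were on the higher side and 0 to 1 on the lower. The shares of all genes at this threshold were not counted for these alternatives. The list was chosen with earlier results of these data known, so its counts beside all genes are description only. DESeq2's Wald test called 12 genes higher (0.0836%) and 7 lower (0.0488%) over the whole table and 0 members.

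The direction of the list was uneven by role. A positive log2 fold change was found for 26 of 38 members, against 45.5% of all genes tested, and the median was 0.29 against -0.04. Without each mouse in turn, between 26 and 28 tested members were positive, and the median ran from 0.17 without Cre-positive 1 to 0.40 without Cre-positive 2. Every Cre-positive value lay above every Cre-negative value for 11 members, against 7.89% of all genes tested, and below for 2, against 10.2%. With scaling by total counts alone, 7 members lay above in this way, against 5.93% of all genes tested, and 2 below, against 10.4%. One member, Sdf2l1, reached the minimum count only in Cre-positive libraries and so had to differ. Without it, 25 of 37 were positive with a median of 0.28, 10 lay above and 5 had an unadjusted p under 0.05 on the higher side. Trib3, which is among these 37, passed the count filter only through Cre-negative libraries, the group where it was higher. Since the tissue is a mixture, more cells of a type and more RNA per cell cannot be told apart here.

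**Figure D1:**
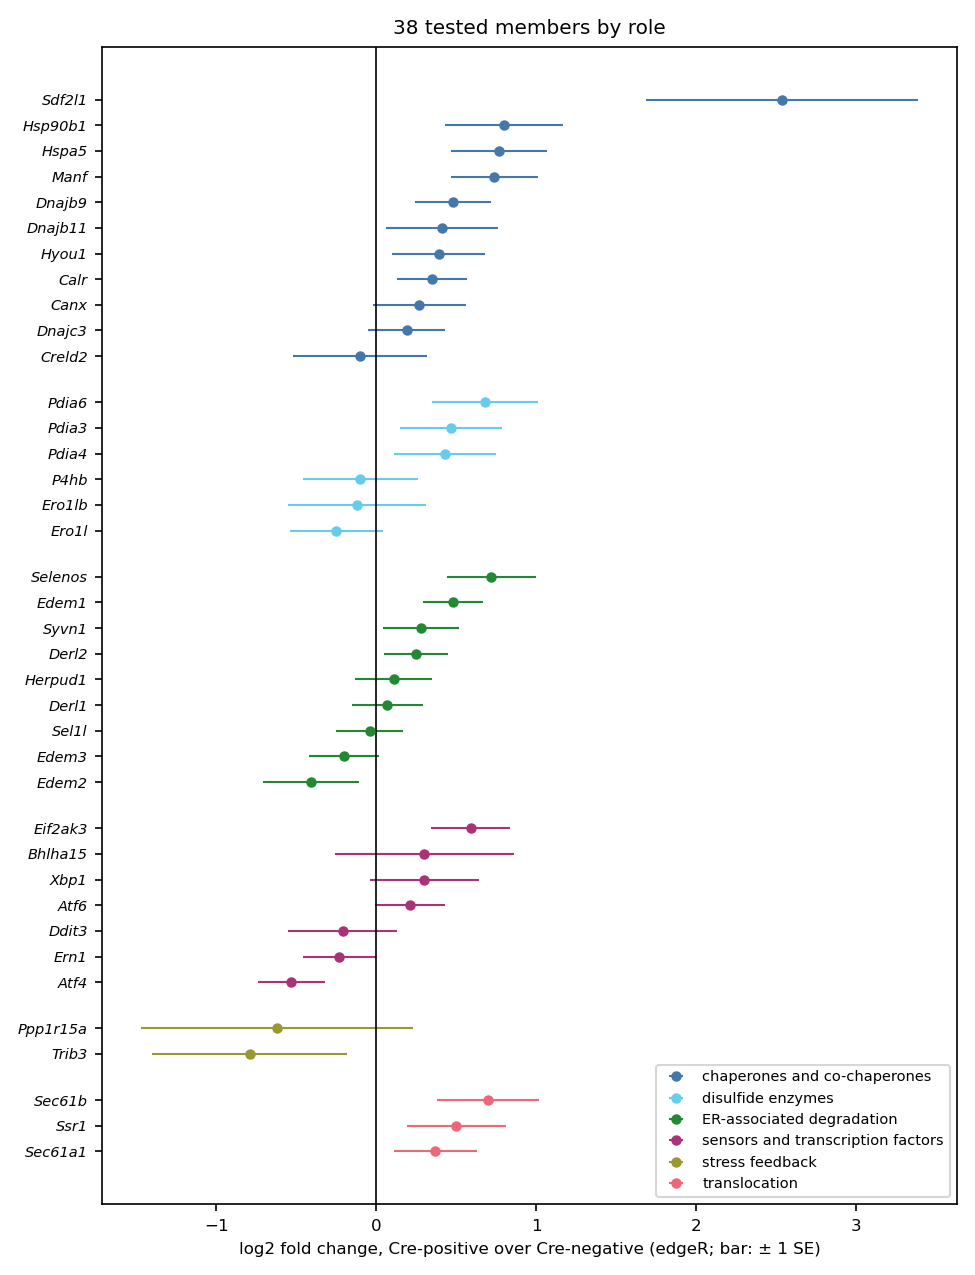
Log2 ratio of the Cre-positive to the Cre-negative group (horizontal axis, edgeR) for the 38 tested genes, coloured by role, with bars of ± 1 SE. Sdf2l1 stands farthest to the right at 2.54, translocation genes and 10 of 11 chaperone genes lie above 0, and Trib3 is lowest at -0.79.

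Library totals ran from 4681119 to 6618204 estimated counts. Among intestinal markers, the brush border genes Anpep and Sis had at least 2927 and 1899 CPM and Lyz1 of Paneth cells at least 1228 CPM in every library, while Fabp1 of enterocytes was at 0 in Cre-positive 1. Counts of Chrm4 itself were 4, 20 and 4 without the transgene and 13 and 5 with it, too few to check the genotype. Summed cell type markers differed between libraries. The summed level of 16 goblet markers, Muc2, Fcgbp and Agr2 among them, was 621 to 1417 CPM in Cre-negative libraries and 5241 and 2351 CPM in Cre-positive 1 and 2. The summed level of 16 plasma and B cell markers, Derl3 and Txndc5 among them, was 1081 CPM in Cre-positive 1 and 124 to 183 CPM in the other 4 libraries. Igkc, the light chain constant gene, had 252 CPM in Cre-positive 1 and 6.12 to 15.2 CPM in the others. The B cell markers Cd79a and Cd79b were at 0 in at least 1 library. The 11 smooth muscle markers summed to 4435 CPM in Cre-negative 1 and 1429 to 2226 CPM in the others. The 12 enterocyte markers summed to 14562, 10814 and 20320 CPM against 8241 and 19739 CPM, with 11 of them lowest in Cre-positive 1 and 11 on the negative side. Sums of 13 Paneth markers were 1650, 3630 and 3043 CPM against 2037 and 2107 CPM, and 10 of the 13 were lowest in Cre-negative 1. Sums of 10 fibroblast markers were highest in Cre-negative 1, at 819 CPM, against 218 to 433 CPM elsewhere. Pancreatic acinar markers had values for 2 of 13 genes, with a sum of at most 4.31 CPM. How far each cell type contributed to the values below was not tested.

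Chaperones and co-chaperones, the largest role, had 10 of 11 genes on the higher side and a median of 0.41. This median was 0.19 without Cre-positive 1. Hspa5 (chromosome 2, 34771970 to 34777547, plus strand, GRCm38), the central ER chaperone that also restrains the stress sensors, stood at 114, 157 and 141 CPM in Cre-negative 1, 2 and 3. Cre-positive 1 and 2 had 301 and 167 CPM. The groups did not overlap, but Cre-positive 2 lay close to Cre-negative 2, and the log2 fold change of 0.77 ± 0.30 (SE) became 0.32 without Cre-positive 1 and 1.17 without Cre-positive 2.

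Hsp90b1 (chromosome 10, 86690209 to 86705509, minus strand), which helps fold receptors and secreted proteins, stood at 278, 382 and 445 CPM in the Cre-negative group and at 874 and 413 CPM in the Cre-positive group. Only Cre-positive 1 stood apart, and Cre-positive 2 lay within the Cre-negative range. Its log2 fold change of 0.80 ± 0.37 (SE) became 0.19 without Cre-positive 1. Its exons overlap Gm15344 and Gm25745 on the same strand and all 5 of its counts were not whole.

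Manf (chromosome 9, 106838312 to 106891979, minus strand), a small ER-resident protein secreted under stress, stood at 51.0, 84.7 and 73.2 CPM in the Cre-negative group and at 134 and 98.7 CPM in the Cre-positive group. Both Cre-positive libraries were above all Cre-negative ones, with a log2 fold change of 0.74 ± 0.27 (SE) that became 0.53 without Cre-positive 1. Manf shares exon bases with Rbm15b on the same strand. Sdf2l1 (chromosome 16, 17130138 to 17132383, minus strand), which works with BiP, had 0, 5 and 6 counts in the Cre-negative group and 30 and 15 counts in Cre-positive libraries. Its log2 fold change of 2.54 ± 0.85 (SE) was the highest of the list and rested on these few counts.

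Dnajb9, a BiP co-chaperone and known Xbp1 target, stood at 117, 76.0 and 101 CPM in the Cre-negative group and at 126 and 146 CPM in the Cre-positive group. Here Cre-positive 2 was the highest library, and the log2 fold change was 0.48 ± 0.24 (SE). Calr, the lectin chaperone calreticulin, stood at 195, 219 and 206 CPM against 301 and 227 CPM, with no overlap and a log2 fold change of 0.35 ± 0.22 (SE), which became 0.17 without Cre-positive 1. Canx, the membrane-bound relative calnexin and the most abundant chaperone gene by CPM, stood at 397, 654 and 655 CPM against 655 and 716 CPM. Cre-negative 1 alone was low, and the other 4 libraries lay close together.

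The remaining chaperone genes overlapped between the groups. Hyou1, the BiP exchange factor Grp170, had a log2 fold change of 0.39 ± 0.29 (SE), and the BiP co-chaperone genes Dnajb11 and Dnajc3 had 0.41 ± 0.35 and 0.19 ± 0.24. Each of these had its highest value in Cre-positive 1. Creld2 was scarce, at 3.12 to 5.93 CPM over all libraries, and was the only chaperone gene with a negative value, -0.10 ± 0.42 (SE).

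**Figure D2:**
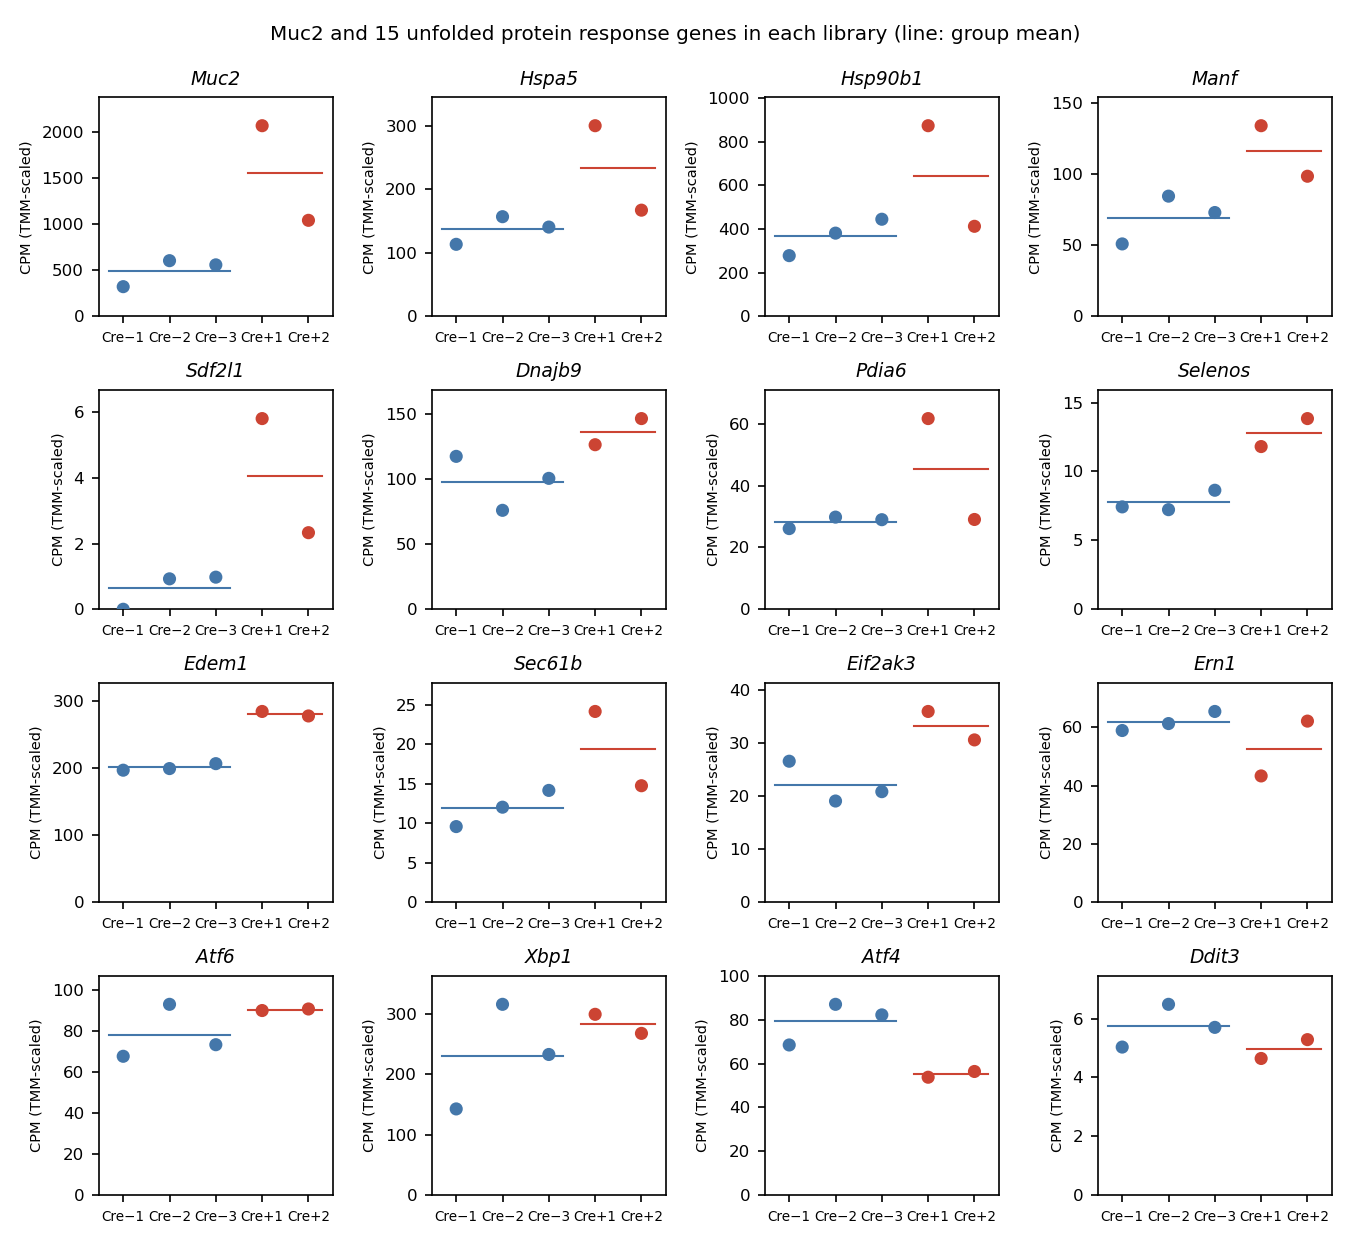
TMM-scaled CPM (vertical axis, from 0) of Muc2 and 15 of the genes in each library, with Cre-negative in blue, Cre-positive in red and a line at each group mean. Hspa5, Hsp90b1 and Pdia6 are high in Cre-positive 1 (301, 874 and 61.7 CPM), whereas Edem1 is alike in both Cre-positive libraries (285 and 278 CPM) and Atf4 is low in both (53.8 and 56.4 CPM).

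Disulfide enzymes were split, with 3 of 6 positive, and the median log2 fold change was 0.17. Pdia6 (chromosome 12, 17266545 to 17284770, plus strand), a disulfide isomerase that binds BiP and attenuates Ire1, stood at 26.1, 29.8 and 29.0 CPM in the Cre-negative group and at 61.7 and 29.1 CPM in the Cre-positive group. Cre-positive 2 lay within the Cre-negative range, and the log2 fold change of 0.68 ± 0.33 (SE) became 0.07 without Cre-positive 1. Pdia3, which pairs with calnexin and calreticulin, stood at 78.1, 92.7 and 110 CPM against 171 and 87.2 CPM. Pdia4 stood at 34.7, 39.3 and 46.1 CPM against 72.4 and 35.9 CPM. These 3 isomerases shared a high Cre-positive 1, and without it Pdia3 and Pdia4 turned to -0.07 and -0.13.

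P4hb, the founding disulfide isomerase, which is also a subunit of prolyl hydroxylase and of the microsomal triglyceride transfer complex, showed another order. It stood at 500, 455 and 780 CPM in the Cre-negative group and at 379 and 702 CPM in the Cre-positive group, so that Cre-positive 1 was the lowest library. The enterocyte gene Sis ranked the 5 libraries in this same order, but the enterocyte gene Anpep was highest in Cre-positive 2 and lowest in Cre-negative 1. The share of all genes with the order of P4hb was not counted, and the part of enterocyte RNA in its level was not tested. Per kilobase of annotated exon, P4hb had the highest level of the list, at 197 CPM per kb over the 5 libraries, followed by Canx at 131 and Hsp90b1 at 119 CPM per kb. Muc2 stood at 129 CPM per kb on this scale. Ero1l and Ero1lb, the oxidases that recharge the isomerases, had log2 fold changes of -0.25 ± 0.29 and -0.12 ± 0.43 (SE). Ero1l was highest in Cre-negative 2, at 256 CPM, and stood between 139 and 168 CPM in the other libraries.

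ER-associated degradation genes ran from -0.41 for Edem2 to 0.72 for Selenos, with 6 of 9 tested positive. Their median of 0.11 ran from 0.06 without Cre-negative 2 to 0.28 without Cre-positive 2, and was 0.20 without Cre-negative 3 or Cre-positive 1. Edem1 (chromosome 6, 108828641 to 108859356, plus strand), a mannosidase-like factor that hands misfolded glycoproteins to the degradation machinery, stood at 197, 199 and 207 CPM in the Cre-negative group and at 285 and 278 CPM in the Cre-positive group. After TMM scaling, the spread within each group was small beside the gap. Scaled by total counts alone, the Cre-negative values spread more widely, though the groups still did not overlap. The log2 fold change of Edem1 was 0.48 ± 0.19 (SE), between 0.48 and 0.55 without each mouse in turn. Its relatives had negative values. Edem2 stood at 8.63, 9.45 and 8.31 CPM against 6.19 and 7.0 CPM, with both Cre-positive libraries below, and Edem3 had -0.20 ± 0.22 (SE).

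Selenos (chromosome 7, 66079649 to 66089405, plus strand), a selenoprotein that links the degradation complex to the cytosolic ATPase p97, stood at 7.43, 7.23 and 8.63 CPM in the Cre-negative group and at 11.8 and 13.8 CPM in the Cre-positive group. Cre-positive 2 was the highest library, and the log2 fold change of 0.72 ± 0.28 (SE) ran from 0.64 to 0.86 without each mouse. Derl2, a channel component, did not overlap either, at 41.7 to 47.4 CPM in Cre-negative mice against 56.9 and 51.1 CPM (0.25 ± 0.20, SE). Sel1l and Syvn1, the core of the ubiquitin ligase complex, had -0.04 ± 0.21 and 0.28 ± 0.24 (SE). Herpud1 and Derl1 had 0.11 ± 0.24 and 0.07 ± 0.22 (SE). Derl3, a derlin of secretory cells such as plasma cells, had 2, 2 and 5 counts in the Cre-negative group and 5 and 0 in Cre-positive libraries and was not tested. No difference in Derl3 was detectable at this depth.

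The sensors and their transcription factors were split, with 4 of 7 positive and a median of 0.21. This median was 0.07 without Cre-negative 1 or Cre-positive 1, 0.10 without Cre-negative 3, 0.36 without Cre-negative 2 and 0.02 with only genes of at least 5 CPM in 2 libraries. Eif2ak3 (chromosome 6, 70844515 to 70905245, plus strand), which encodes Perk, stood at 26.6, 19.1 and 20.9 CPM in the Cre-negative group and at 36.0 and 30.6 CPM in the Cre-positive group. The groups did not overlap, and the log2 fold change of 0.59 ± 0.25 (SE) ran from 0.49 to 0.76 without each mouse. All 5 of its counts were not whole, and its exons overlap Gm43292 on the opposite strand. Ern1 (chromosome 11, 106394650 to 106487852, minus strand) stood at 58.9, 61.3 and 65.5 CPM against 43.3 and 62.2 CPM, so Cre-positive 1 alone was low. Atf6 (chromosome 1, 170704674 to 170867771, minus strand) stood at 67.8, 93.2 and 73.5 CPM against 90.2 and 90.9 CPM, within the Cre-negative range.

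Xbp1 (chromosome 11, 5520659 to 5525893, plus strand) was the most abundant of the sensor and factor genes per kilobase, at 77.6 CPM per kb. It stood at 143, 316 and 233 CPM in the Cre-negative group and at 300 and 268 CPM in the Cre-positive group. The Cre-negative mice alone spanned this whole range, and the log2 fold change was 0.30 ± 0.34 (SE). Gene counts do not show the share of Xbp1 messenger that is spliced. Bhlha15 (Mist1), a factor of secretory cell maturation, had 7 to 21 counts per library and a log2 fold change of 0.30 ± 0.56 (SE).

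Atf4 (chromosome 15, 80255184 to 80257541, plus strand) stood at 68.5, 87.1 and 82.3 CPM in the Cre-negative group and at 53.8 and 56.4 CPM in the Cre-positive group. Both Cre-positive libraries were below all Cre-negative ones, and the log2 fold change of -0.53 ± 0.21 (SE) ran from -0.59 to -0.45 without each mouse. Atf4 is regulated largely at translation, which these counts do not measure. Ddit3, the stress-linked factor Chop, stood at 5.03, 6.49 and 5.70 CPM against 4.64 and 5.29 CPM, with overlap and a log2 fold change of -0.21 ± 0.34 (SE).

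Among the feedback genes, Trib3, a pseudokinase gene that Atf4 and Chop raise, had 14, 7 and 24 counts in the Cre-negative group and 9 and 10 in Cre-positive libraries. Its log2 fold change was -0.79 ± 0.61 (SE), and it passed the count filter only through Cre-negative libraries, which favours a lower value. Ppp1r15a, the phosphatase subunit Gadd34 that restores translation, stood at 17.5, 4.82 and 3.91 CPM against 9.29 and 2.02 CPM. Single libraries set its sign: -0.62 ± 0.85 (SE) became 0.38 without Cre-negative 1 and -2.03 without Cre-positive 1.

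All 3 translocation genes were positive, with a median log2 fold change of 0.50. Sec61b, the beta subunit of the channel through which new proteins enter the ER, stood at 9.58, 12.0 and 14.2 CPM in the Cre-negative group and at 24.2 and 14.8 CPM in the Cre-positive group. Cre-positive 2 lay just above Cre-negative 3, and the log2 fold change of 0.70 ± 0.32 (SE) became 0.33 without Cre-positive 1. Sec61a1, the channel itself, stood at 80.3, 120 and 135 CPM against 138 and 151 CPM, with Cre-positive 2 highest (0.37 ± 0.26, SE). Ssr1, of the translocon-associated complex, stood at 82.0, 113 and 159 CPM against 191 and 143 CPM, with overlap (0.50 ± 0.31, SE). Scaled by total counts alone, Sec61b, Sec61a1, Calr and Derl2 overlapped too.

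Genes with and without an exact ERSE in their window had the same median, and the difference was not tested. The 9 tested genes with an ERSE had log2 fold changes from -0.12 to 0.80 with a median of 0.28, and 7 were positive. The 24 tested genes with a window and no exact ERSE had values from -0.79 to 2.54, also with a median of 0.28, and 14 were positive. They include Dnajb11 and Herpud1, which have an ERSE-II. Their extremes, Trib3 and Sdf2l1, each passed the count filter through a single group. The highest library was Cre-positive 1 for 6 of the 9 and for 9 of the 24.

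The load on the ER was not measured, and Muc2, the main cargo of goblet cells, served as the reference in each library. Its Cre-negative values were 322, 604 and 558 CPM and its Cre-positive values 2065 and 1040 CPM, a log2 fold change of 1.65 ± 0.40 (SE) that did not pass the test (edgeR adjusted p = 0.977). A correlation over 5 libraries was not computed. By order, 3 members, Hspa5, Calr and Manf, ranked the libraries exactly as Muc2 did, from Cre-positive 1 through Cre-positive 2, Cre-negative 2 and Cre-negative 3 to Cre-negative 1. That order was found in 0.982% of all genes tested, Muc2 included. Both counts hold for TMM scaling. Scaled by total counts alone, Calr overlapped between the groups and so did not keep the order. The highest library was Cre-positive 1 for 17 of the 38 tested members, against 25.3% of all genes tested. The lowest was Cre-negative 1 for 20 of 38, against 21.8%. Cre-negative 1 was the library with the highest smooth muscle markers, and the part of muscle RNA in its low values was not tested.

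**Figure D3:**
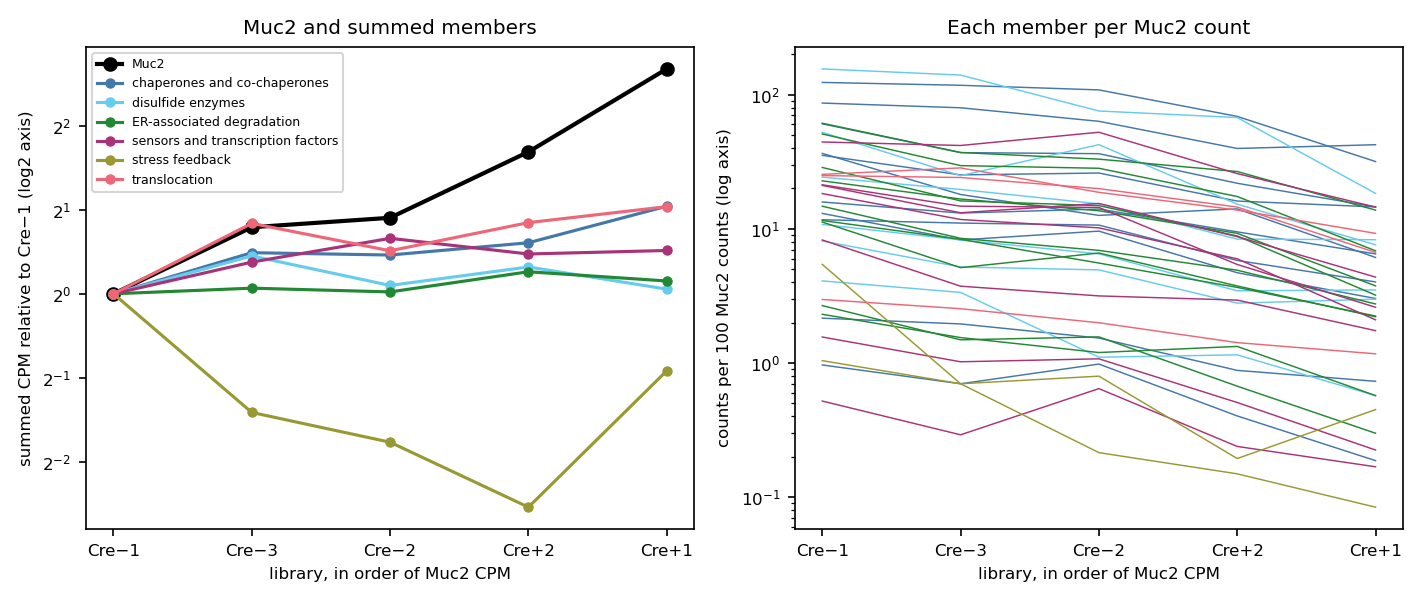
Left, summed CPM of Muc2 and of each role relative to Cre-negative 1 (log2 axis), and right, counts of each of 37 genes per 100 Muc2 counts (log axis), with libraries in order of Muc2 CPM and roles coloured alike. Muc2 reaches 6.41 times its Cre-negative 1 level in Cre-positive 1, while nearly all lines on the right slope downward, with Sdf2l1 and Derl3 left out for counts of 0.

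As a sum, which is weighted to abundant genes, the list differed less between libraries than Muc2 did. Single members could differ more, such as Ppp1r15a, whose highest library had 8.66 times the level of its lowest. Summed over all 39 genes, the level was 3291, 4103 and 4360 CPM in the Cre-negative libraries against 5047 and 4543 CPM in the Cre-positive ones. Relative to Cre-negative 1, Cre-positive 1 had 1.53 times the summed level and 6.41 times the Muc2 level, and Cre-positive 2 had 1.38 and 3.23 times. Members' counts per Muc2 count were 10.2, 6.80 and 7.81 in the Cre-negative group and 2.44 and 4.37 in Cre-positive libraries, a ratio that does not depend on scaling. For 35 of 39 genes, and 34 of the 38 tested, the ratio to Muc2 was lower in both Cre-positive libraries than in every Cre-negative one. The same held for 86.2% of all genes tested, so this count is near the background and follows the level of Muc2. Sdf2l1 was the only gene with a higher ratio in both, and Dnajb9, Ero1lb and Selenos overlapped. A ratio shows unequal change, not which of its parts changed.

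Genes that work with Muc2 in goblet cells differed among themselves. Agr2, a disulfide isomerase relative of mucus-producing cells, stood at 5.75, 12.0 and 14.8 CPM in the Cre-negative group and at 136 and 20.5 CPM in the Cre-positive group. Its log2 fold change of 2.83 ± 0.77 (SE) became 0.93 without Cre-positive 1. Agr2 did not pass edgeR's test with all 5 mice but was called higher by DESeq2 (adjusted p = 0.0447), and by edgeR without Cre-positive 2, at 3.66. Ern2, the Ire1 form of goblet cells, stood at 12.9, 19.1 and 7.33 CPM against 16.8 and 9.48 CPM, a log2 fold change of 0.00 ± 0.46 (SE). Creb3l1, a membrane-bound factor related to Atf6, stood at 7.91, 7.78 and 5.05 CPM against 19.9 and 7.77 CPM, high in Cre-positive 1 alone (1.0 ± 0.45, SE).

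Other genes of the secretory pathway were taken from 8 further lists made by function, and none of their members was called by edgeR in either direction with all 5 mice. Other ER folding enzymes had 19 of 24 tested genes positive with a median log2 fold change of 0.19, and Ppic, a peptidyl-prolyl isomerase, was lowest at -0.95 ± 0.73 (SE). Ppic passed the count filter only through Cre-negative libraries, which favours a lower value. Translocon, signal recognition and signal peptidase genes had 16 of 22 positive with a median of 0.25. The channel subunit gene Sec61g was highest at 1.30 ± 0.50 (SE) and the signal peptidase gene Spcs3 next at 0.86 ± 0.37. Sec61g had 5, 15 and 9 counts in the Cre-negative group and 27 and 25 in Cre-positive libraries, all 5 not whole. Its Cre-negative libraries alone would not have passed the count filter, which favours a higher value. The genes of N-glycan transfer and glycoprotein sorting had 12 of 20 positive with a median of 0.15, from -0.80 ± 0.43 (SE) for the glucosyltransferase relative Uggt2 to 0.57 ± 0.31 for the oligosaccharyltransferase subunit Ostc. The medians of these 3 lists were positive without each mouse too, as were those of the chaperone, degradation, sensor and translocation members.

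Medians of the other lists were lower with all 5 mice. Other degradation genes had 11 of 23 positive (median -0.01), other stress sensors and regulators 14 of 24 (median 0.02) and genes of ER exit in COPII vesicles 8 of 21 (median -0.06). Without Cre-positive 1 these medians were 0.17, 0.20 and 0.20. Those of the chaperones and the 3 further lists above were 0.15 to 0.19, so the contrast between these lists rested on that library. The translocation, degradation and sensor members had medians of 0.33, 0.20 and 0.07 without it. The ubiquitin ligase gene Rnf139 had 0.43 ± 0.21 (SE) and the conjugating enzyme gene Ube2j1 0.34 ± 0.20, while the coat genes Sec23b and Sec16b had 0.56 ± 0.27 and -0.47 ± 0.36. Among the regulators, Serp1, which protects new membrane proteins during stress, stood at 243, 284 and 339 CPM against 526 and 375 CPM. Heat shock genes of the cytosol and mitochondria had 11 of 20 positive (median 0.08), and the small heat shock genes Hspb1 and Hspb8, both highest in Cre-negative 1, had -1.25 ± 0.95 and -0.92 ± 0.66 (SE). Leaving out Cre-positive 1 gave this list a median of -0.18, and leaving out Cre-positive 2 gave 0.33.

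Targets of Atf4 in the integrated stress response had 8 of 26 tested genes on the positive side, with a median of -0.20. The groups did not overlap for 5 of them on the lower side, against 10.2% of all genes tested, and for 1 on the higher side, against 7.89%. Atf5, a related transcription factor, stood at 3.83, 2.04 and 1.95 CPM in the Cre-negative group and at 0.968 and 0.933 CPM in the Cre-positive group (-1.42 ± 0.61, SE). Atf5 is among the 5, but it passed the count filter only through Cre-negative libraries and so had to come out lower. Slc7a11, the cystine transporter gene, was high in 1 library, at 17.2 CPM in Cre-positive 1 and 1.55 to 2.78 CPM elsewhere. Leaving out Cre-positive 1 gave a median of -0.42, and leaving out Cre-positive 2 gave 0.06.

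**Figure D4:**
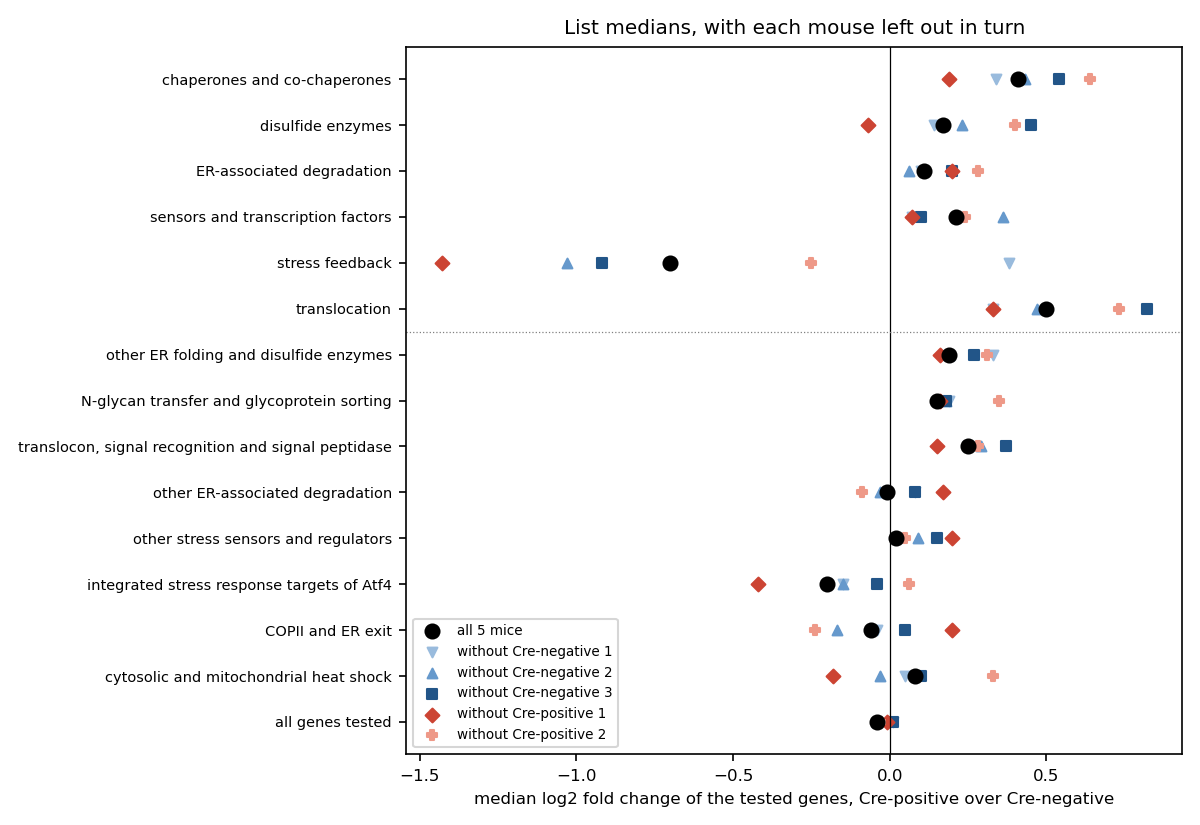
Median log2 fold change of the tested genes of each role (above the dotted line) and of each further list and all genes (below it), with all 5 mice in black and with each mouse left out in colour. Chaperones and translocation genes stay above 0 in all of these fits, from 0.19 and 0.33 without Cre-positive 1, whereas disulfide enzymes turn to -0.07 without it.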

How the data were processed

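RNA from the small intestine of 5 mice was depleted of ribosomal RNA and sequenced, per the labels' protocols. The authors deposited 1 table of estimated counts per gene with a column for each mouse. Partek and mm10 are named in the submitters' processing notes. The aligner, gene annotation and strand setting were not given in the sources used here. Whether reads of overlapping genes on opposite strands were separated is therefore not known. Between 19.6% and 21.7% of values in a library were not whole (over 0.005 from a whole number), and 10 members had such values. Counts were rounded.

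Groups follow the genotype label. Replicates are numbered in record order and pair no mice. The main test was edgeR 4.0.16 (R 4.3.3) with TMM scaling, filterByExpr with a minimum count of 10 (14352 genes kept) and a robust quasi-likelihood fit on genotype. P-values were Benjamini-Hochberg adjusted over all genes, with 3 residual degrees of freedom. The fit was also run on counts simulated with the spread estimated from these libraries. That run checked only that median fold changes came out near the planted ones, and set no criterion for calls. The SE was taken from the fold change and the square root of F. Scaling by RLE, the upper quartile or totals, DESeq2 1.42.0, limma-voom 3.58.1, a fit that was not robust, 2 other filters and leaving out each mouse were the alternatives. Coordinates and exon lengths came from GENCODE M21 (GRCm38), where 38 members were placed. Of these, 3 shared exon bases with a same-strand gene and 10 with an opposite-strand gene.

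The members and lists were chosen with earlier results of these data known. Values in every library were to be given for Hspa5, Xbp1, Ern1, Atf6, Eif2ak3, Atf4, Ddit3, the 10 members with the smallest p and the most abundant member of each role, with Muc2, Ern2, Agr2 and Creb3l1. The 2 genes with the largest fold change were named from each other list, and marker genes from the 2 most abundant of their lists. The values by library of further members, Cd79a and Cd79b were added after values were seen.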

Additional observations from a re-analysis of the deposited data

How the results depend on the processing

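No paired analysis was possible because each mouse has its own number in the labels and no number is shared between the groups. Over all genes, DESeq2 called 12 higher and 7 lower. Without each mouse in turn, edgeR called 0 to 58 genes higher, the 58 without Cre-positive 2, and 0 lower. No member was called under any alternative run, with a lowest adjusted p among members of 0.194 without Cre-positive 2. With total counts alone, 7 members had Cre-positive values all above (5.93% of all genes). Without each mouse, which leaves fewer libraries to overlap, 12 to 22 members lay above (13.4% to 31.3% of all genes) and 3 to 7 below (13.7% to 29.2%).

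Scaling, filter and tool turned the sign of 0 tested members. Leaving out 1 mouse turned 12, 7 of them without Cre-positive 1. Over the fits without each mouse, log2 fold changes ran from -0.25 to 0.19 for Creld2, -0.07 to 0.91 for Pdia3, -0.13 to 0.89 for Pdia4, -0.57 to 0.31 for P4hb, -0.39 to 0.04 for Ero1l and -0.43 to 0.32 for Ero1lb. They ran from -0.01 to 0.30 for Herpud1, -0.42 to 0.05 for Edem3, -0.19 to 0.15 for Sel1l, -0.06 to 0.25 for Derl1, -0.48 to 0.04 for Ern1, -2.03 to 0.38 for Ppp1r15a and -0.43 to 0.40 for Ern2. The median over all genes stayed between -0.04 and 0.01. Precision is limited by 2 Cre-positive mice and by a biological coefficient of variation of 33.1% over all genes. Counts by role and by list under each alternative were added after seeing the data.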
